A study of Homo sapiens with 6 samples.

Results

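MDA-MB-231 cells given 75 µg/ml AF-EAE for 24 h were compared with cells given DMSO, across all genes. The comparison rests on 4 of the 6 libraries of the series, taken by their treatment labels: 2 at 75 µg/ml and 2 with DMSO, the solvent control. The other 2 libraries came from cells given 150 µg/ml, and they entered the fit and a comparison of the doses. MDA-MB-231 is an established human line of triple-negative breast cancer, with the genotype given as WT, and all groups were this 1 line in the same medium with serum. AF-EAE is an extract of the plant Antenoron filiforme made with ethyl acetate, and the sources used here do not say which compounds it holds. The series title names proliferation and the SKP2/P21 axis as the study's subject, and the account below covers what the lower dose did in other genes. The labels call the 2 libraries of a group biological replicates. Since no source used here says that they were grown as separate cultures, p-values reflect only how far these libraries vary, which may be technical.

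A crude plant extract can reach a cell through several sensors at once. The aryl hydrocarbon receptor binds planar aromatic compounds and switches on cytochrome P450 genes of the CYP1 family. ATF4, a factor made when amino acids run short or proteins misfold, binds CARE elements in front of its target genes, and NF-kB turns on cytokine and chemokine genes. TEAD factors, together with the coactivators YAP and TAZ, keep genes of the matrix and the cytoskeleton active in spread, stiffly attached cells. The activity of these sensors and factors was not measured here.

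Counts in genes came to between 15621103 and 17113722 per library, and libraries of a group correlated at 0.9899 to 0.991 over log2 CPM. Levels below are CPM, counts scaled to a common library total, after TMM scaling, which sets each library's total so that the bulk of genes stays level. Markers chosen for the line were present, with VIM, CD44 and AXL among them. Their summed level was 5899 and 5823 CPM of gene counts in DMSO and 4777 and 4683 CPM at 75 µg/ml. By the edgeR test described below, 9 of 10 fell (median log2 fold change -0.35), KRT7 being the exception (7 fell under total counts). Of these 10 markers 90% lay in the highest of 5 equal classes of mean level, where 48.6% of all tested genes fell. Whether the markers fell more often than other genes of that level was not tested. Over all levels, 19.2% of tested genes rose and 19.4% fell. Of 11 luminal breast markers 7 were tested and 4 rose (2 with DESeq2 or without DMSO replicate 1), and their sum went from 210 and 212 to 315 and 316 CPM. PGR and TFF1 had 0 counts in all 4 libraries, CDH1 had 0 and 0 in DMSO and 1 and 1 at 75 µg/ml, and ESR1, named after its values were seen, had 2 and 2 against 15 and 13 counts. Of 8 leukocyte markers none was tested and 5 were at 0 in all 4 libraries, among them PTPRC and CD3E. Fibroblast markers summed to 6.66 and 8.59 CPM in DMSO and 10.7 and 10.5 at 75 µg/ml, and 3 of 8, DCN, LUM and FAP, were at 0 throughout. Endothelial markers summed to 16.5 and 15.2 against 17.3 and 13.5 CPM, and of 3 tested VWF rose. In bulk RNA, fewer cells of a kind and less RNA per cell cannot be told apart.

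The lower dose moved a large part of the profile by small amounts, and a smaller number of genes by a lot. By edgeR's quasi-likelihood test, with an adjusted p under 0.05 as the threshold for a rise or a fall, 38.6% of the 15589 tested genes changed: 2989 rose (19.2%) and 3026 fell (19.4%). With library totals in place of TMM the median of all genes moved from 0.01 to 0.14 on the log2 scale, and the split became 4501 higher and 1816 lower. Directions are therefore relative to the scaling, and for each gene list below the counts under total counts follow those under TMM. The median change of a gene that passed was 0.57 upward and -0.37 downward on the log2 scale. At a size of at least 1 on the log2 scale, 740 genes rose and 196 fell, at least 2 left 180 and 27, and at least 3 left 61 and 4. Most of these large rises were in low genes: 323 and 285 of the 740 lay in the 2 lowest of 5 equal classes of mean level, against 58 and 57 of the falls, and in the highest class 24 genes rose and 32 fell by as much. Of all tested genes 68.5% had DMSO and 75 µg/ml libraries that did not overlap, so that a lack of overlap alone says little here.

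**Figure D1:**
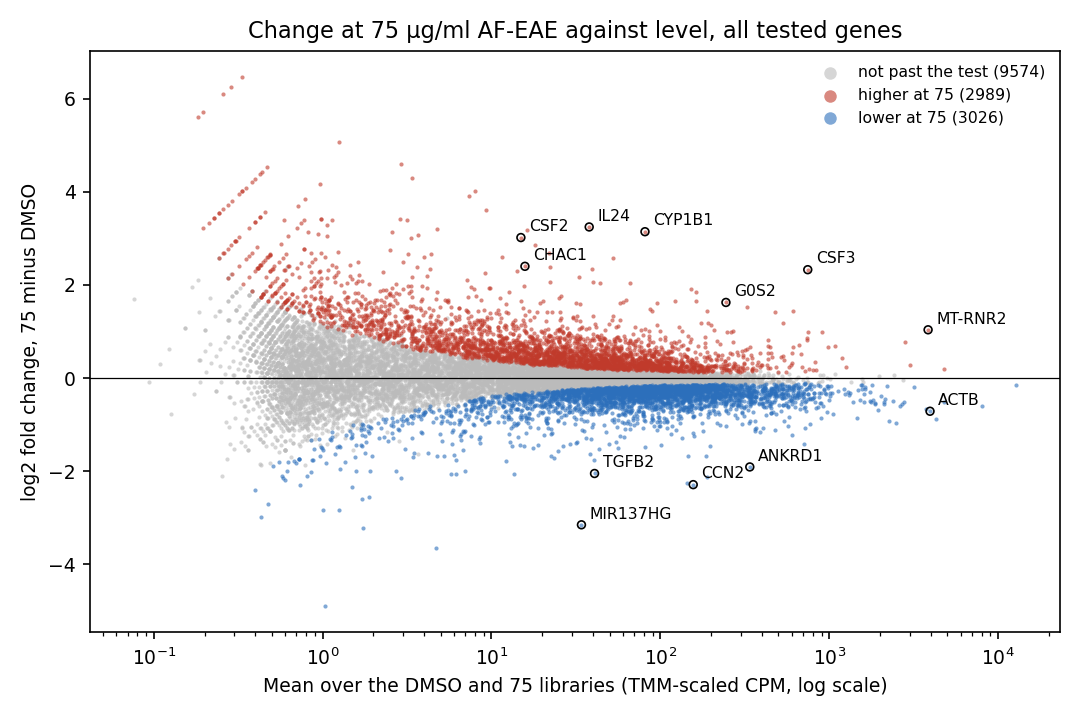
Log2 fold change at 75 µg/ml against DMSO (vertical axis) by mean level over the 4 libraries in TMM-scaled CPM (horizontal log axis), 1 point per tested gene, red for the 2989 that rose, blue for the 3026 that fell and grey for the rest. Rises reach further from 0 than falls at low levels, and blue points gather at high levels.

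Level and direction went together. Under TMM, in the quintile of tested genes with the highest mean level, from 85.1 CPM upward, 16.4% rose and 48.6% fell, with a median of -0.13. That median is of similar size to the move of the all-gene median, from 0.01 to 0.14, under library totals. In the lowest quintile, up to 1.75 CPM, 10.4% rose and 1.92% fell, with a median of 0.26. Low genes need a larger change to pass at this depth, so the share that changed is not comparable between quintiles. The 100 most abundant rows held 17.9% of the counts in each DMSO library and 16.3% in each library at 75 µg/ml, and rows with at least 1 count numbered 22379 and 22516 in DMSO against 23189 and 23575. Mitochondrial transcripts held 4.19% and 4.3% of the counts in DMSO and 3.69% and 3.76% at 75 µg/ml. Protein-coding genes with the longest spans in the genome, over 99255 bases, fell in 26.6% and rose in 17.3% of cases. Those of up to 11236 bases fell in 18.2% and rose in 23.5%.

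**Figure D2:**
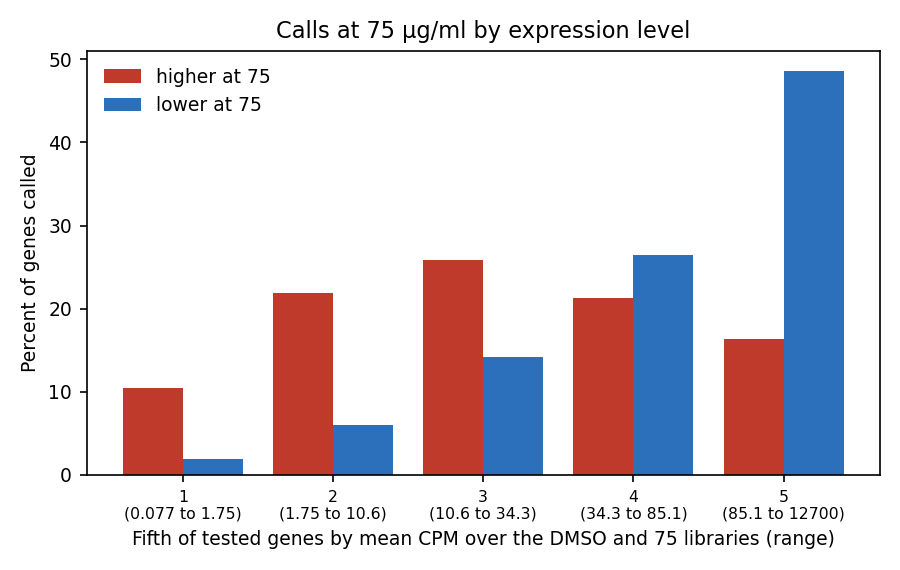
Percent of tested genes that rose (red) or fell (blue) at 75 µg/ml in each quintile of mean level, with the range of the quintile in TMM-scaled CPM below it. The share that fell grows from 1.92% in the lowest quintile to 48.6% in the highest.

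The largest falls among genes of 10 CPM or more included genes of the matrix, of a secreted antagonist and of the cytoskeleton, and a microRNA host transcript. Others belonged to none of these classes. Since these genes were picked for their change and for groups that did not overlap, their values only describe both. CCN2, the connective tissue growth factor gene (ENSG00000118523.6, chromosome 6 from 131948176 to 131951373 on the minus strand, GRCh38), stood at 258 and 261 CPM in DMSO and 54.2 and 52.3 CPM at 75 µg/ml, a change of -2.29 on the log2 scale (SE 0.077, edgeR's adjusted p = 8.2e-13). ANKRD1, which encodes a cofactor of transcription in muscle and stretched cells, had 534 and 534 against 144 and 140.5 CPM (-1.91). The libraries of each group lay close together and far from those of the other. THBS1, the gene of the matrix protein thrombospondin, had 299.6 and 313 in DMSO and 73.5 and 67.9 CPM at 75 µg/ml (-2.11). TGFB2, a ligand of the TGF-beta family, had 61.2 and 70.0 and 15.5 and 16.3 CPM (-2.05), with 26.6% of its exons shared with other genes. In each of the 4 the groups were far apart against the spread within them.

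The 250 bases before the start sites of these 4 genes are shown because each holds the core of the binding site of TEAD factors, GGAATG, or its reverse complement CATTCC on the strand shown, in capitals. All are 5′ to 3′ on the gene's strand, from RefSeq on GRCh38.p14. The stretches lie at chr6:131951373-131951622 (minus strand), chr10:90921088-90921337 (minus), chr15:39580829-39581078 (plus) and chr1:218345086-218345335 (plus).
CCN2: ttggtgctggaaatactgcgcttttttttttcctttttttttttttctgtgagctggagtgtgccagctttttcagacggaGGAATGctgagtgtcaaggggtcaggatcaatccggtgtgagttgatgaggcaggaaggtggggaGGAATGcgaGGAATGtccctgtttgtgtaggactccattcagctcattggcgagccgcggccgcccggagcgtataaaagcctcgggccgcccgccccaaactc
ANKRD1: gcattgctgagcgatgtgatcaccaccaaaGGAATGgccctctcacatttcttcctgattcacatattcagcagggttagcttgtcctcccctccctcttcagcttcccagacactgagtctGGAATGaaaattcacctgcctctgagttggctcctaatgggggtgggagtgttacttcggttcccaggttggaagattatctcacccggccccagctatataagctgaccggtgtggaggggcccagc
THBS1: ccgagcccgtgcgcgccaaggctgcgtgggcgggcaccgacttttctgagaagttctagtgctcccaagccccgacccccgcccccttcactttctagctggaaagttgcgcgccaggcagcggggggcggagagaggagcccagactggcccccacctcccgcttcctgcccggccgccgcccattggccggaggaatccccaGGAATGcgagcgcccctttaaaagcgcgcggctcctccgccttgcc
TGFB2: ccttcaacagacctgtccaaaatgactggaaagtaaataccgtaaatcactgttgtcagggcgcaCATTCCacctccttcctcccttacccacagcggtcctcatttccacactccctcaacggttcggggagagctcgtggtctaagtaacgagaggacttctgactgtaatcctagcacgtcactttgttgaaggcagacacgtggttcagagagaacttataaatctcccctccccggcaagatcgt

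CCN2 held 3 copies of these letters, ending 164, 99 and 90 bases before the start, and ANKRD1 held 2, ending 215 and 123 bases before it. A promoter entry was found for 10968 of the tested genes and for 10 of the 12 largest falls. Of these 10, 7 held GGAATG on either strand: the 4 above with DKK1, NEXN and COL12A1. Over all tested genes with an entry the share was 12.9%. It was 19.1% (22 of 115) for genes that fell by 1 or more on the log2 scale, 9.21% (43 of 467) for genes that rose by as much, and 0 of the 7 largest rises with an entry. The 115 include the 10 largest falls and the 22 include their 7 matches, so the 2 shares are not separate results. No difference between shares was tested. A match is a run of letters, and binding was not measured.

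DKK1 encodes a secreted antagonist of Wnt signalling and went from 247 and 228 to 50.1 and 49.2 CPM. NEXN, an actin-binding protein gene, went from 20.2 and 23.4 to 5.13 and 5.29 CPM, and COL12A1, a collagen gene, from 213 and 232 to 65.8 and 73.9 CPM. The rest of the 12 were outside the matrix. SNCAIP encodes the synuclein partner synphilin (19.6 and 17.9 against 5.93 and 5.05 CPM), RIMS2 a vesicle-docking protein of synapses (59.8 and 65.1 against 17.2 and 19.5 CPM) and ATP8B1 a lipid flippase (36 and 32.9 against 11.8 and 9.73 CPM). SERTAD4, a SERTA-domain gene, had 37.1 and 34.6 against 10.5 and 11.4 CPM, and the antisense row beside it, SERTAD4-AS1, had 9.71 and 7.33 against 2.87 and 3.48 CPM. Because the sources used here do not say whether reads kept their strand, the 2 rows cannot be taken as separate measurements.

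Among genes of 10 CPM or more the deepest fall was that of MIR137HG, the host transcript of miR-137 (ENSG00000225206.10, chromosome 1 from 97933474 to 98049863 on the minus strand). It had 64.5 and 58.1 CPM in DMSO and 6.66 and 7.15 CPM at 75 µg/ml, 8.87-fold lower (log2 fold change -3.15, SE 0.118, adjusted p = 3.7e-12). The microRNA cut from it is shown with its seed, bases 2 to 8, in capitals, as RefSeq gives it at chr1:98046091-98046113 on the minus strand. Mature microRNAs were not measured in these libraries.
hsa-miR-137-3p: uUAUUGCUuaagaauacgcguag

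**Figure D3:**
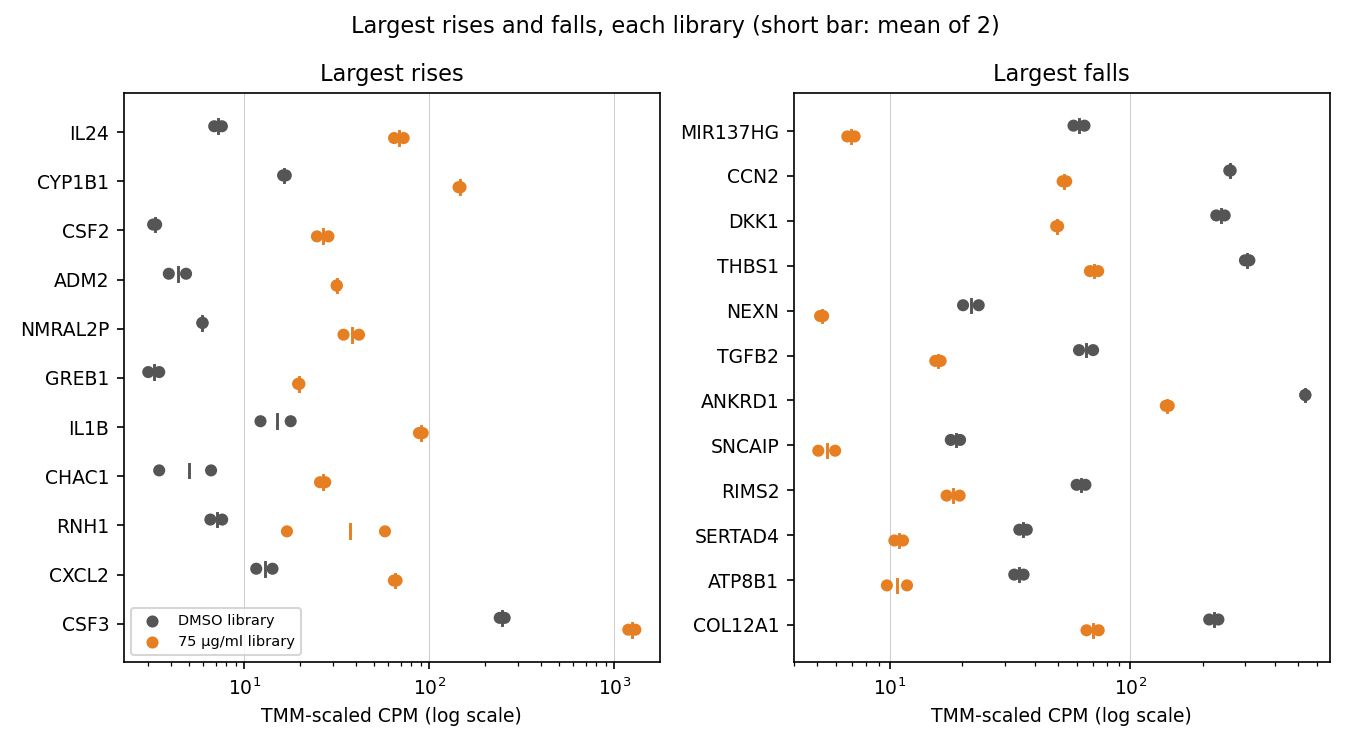
TMM-scaled CPM (log axis) in each DMSO library (grey) and each 75 µg/ml library (orange) for 11 of the 12 largest rises (left) and the 12 largest falls (right) among genes of 10 CPM or more, with a short bar at the mean of the 2. The groups stand apart for every gene because only genes without overlap were picked, and RNH1 has the widest spread within a group.

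The largest rises among genes of 10 CPM or more included cytokines, a CYP1 enzyme and ATF4 targets. IL24, a cytokine of the interleukin 10 family (ENSG00000162892.16, chromosome 1 from 206897443 to 206904139 on the plus strand), went from 7.57 and 6.87 to 64.5 and 72.6 CPM, 9.48-fold (log2 fold change 3.25, SE 0.0979, adjusted p = 3.3e-13). CSF2, which encodes the growth factor GM-CSF, went from 3.21 and 3.34 to 28.5 and 24.7 CPM and IL1B, the interleukin 1 beta gene, from 12.2 and 17.8 to 92 and 87.9 CPM. CXCL2, a chemokine that draws neutrophils and has close paralogs, went from 11.6 and 14.2 to 66.5 and 64.3 CPM. CSF3 encodes G-CSF and was already abundant, with 255 and 240.1 CPM in DMSO against 1189 and 1298 at 75 µg/ml. All 5 encode secreted signals, and a lack of overlap between the groups was part of the rule that picked them.

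CYP1B1, a cytochrome P450 that oxidises aromatic compounds and steroids, had 16.2 and 16.8 against 147 and 144 CPM (log2 fold change 3.14, SE 0.07). Its relative CYP1A1 had 4.73 and 4.78 against 24.1 and 22.8 CPM (2.30). CHAC1 encodes an enzyme that degrades glutathione and went from 3.47 and 6.61 to 27.4 and 25.6 CPM, and ADM2, a peptide hormone gene, went from 3.91 and 4.84 to 31.6 and 31.6 CPM. GREB1, best known as an oestrogen-responsive gene, rose from 3.03 and 3.47 to 19.9 and 19.5 CPM. The pseudogene NMRAL2P rose from 5.93 and 5.96 to 41.7 and 34.4 CPM. In all of them both libraries at 75 µg/ml were well above both DMSO libraries. For all but CYP1A1 the rule that picked them required a lack of overlap.

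RNH1, a ribonuclease inhibitor gene, passed the test although its libraries at 75 µg/ml lay far apart. It had 6.56 and 7.59 CPM in DMSO and 57.6 and 17 at 75 µg/ml (adjusted p = 0.011). Without 75 µg/ml replicate 1 its log2 fold change was 1.26 and it did not pass (adjusted p = 0.138), nor did it with DESeq2 (adjusted p = 0.141) or limma-voom (0.0815). Of 9451 genes with a mean of 10 CPM or more, 10 had libraries of a group that differed by over 2-fold (with 0.1 CPM added), RNH1 among them.

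The 250 bases before the starts of CHAC1, CXCL2 and CYP1A1 are shown for the letters of 3 sensors named above: the CARE TGATGNAA (found on the reverse strand as TTNCATCA), the NF-kB-type site, and GCGTG, the core to which the aryl hydrocarbon receptor binds. They run 5′ to 3′ on the gene's strand with, in capitals, only the CARE match in CHAC1, the NF-kB-type match in CXCL2 and the GCGTG match in CYP1A1 (RefSeq, GRCh38.p14, chr15:40953221-40953470 plus, chr4:74099196-74099445 minus and chr15:74725529-74725778 minus).
CHAC1: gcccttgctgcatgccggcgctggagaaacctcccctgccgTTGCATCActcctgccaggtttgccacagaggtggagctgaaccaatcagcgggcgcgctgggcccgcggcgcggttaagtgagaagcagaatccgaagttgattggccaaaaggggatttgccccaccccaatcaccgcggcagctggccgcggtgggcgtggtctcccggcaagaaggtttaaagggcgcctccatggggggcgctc
CXCL2: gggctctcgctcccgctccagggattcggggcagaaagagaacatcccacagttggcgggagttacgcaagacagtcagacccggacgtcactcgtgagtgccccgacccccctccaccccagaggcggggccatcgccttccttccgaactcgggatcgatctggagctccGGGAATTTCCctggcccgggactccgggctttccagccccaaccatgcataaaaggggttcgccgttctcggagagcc
CYP1A1: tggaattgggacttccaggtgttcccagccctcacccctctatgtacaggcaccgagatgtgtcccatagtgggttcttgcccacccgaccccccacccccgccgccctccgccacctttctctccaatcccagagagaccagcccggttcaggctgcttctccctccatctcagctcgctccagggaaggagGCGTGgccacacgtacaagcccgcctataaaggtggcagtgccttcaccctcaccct

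The CHAC1 stretch also holds 1 GCGTG match, left in lower case. On either strand GCGTG was found before 52.5% of tested genes, the NF-kB-type letters before 2.54% and the CARE letters before 2.35%. Among the 467 genes with an entry that rose by 1 or more on the log2 scale the shares were 42.4%, 2.78% and 3.85%. Letters of other factors were searched too, and AP-1 is named for its larger share among the rises. The AP-1 letters TGACTCA, read on either strand, stood before 8.35% of these genes and 4.3% of all tested. Those of the antioxidant response element stood before 16.9% and 15.9%, of CRE before 1.93% and 3.36% and of E2F before 1.28% and 2.79%. No difference between these shares was tested. No binding was measured, and these shares describe windows of 250 bases.

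The genes with the largest gains and losses in CPM included mitochondrial, ferritin and translation transcripts. MT-RNR2, the large mitochondrial ribosomal RNA, went from 2340.1 and 2699 to 5114 and 5229.5 CPM. Messages of the same circular genome went the other way: MT-CO1 from 9212 and 10086 to 6404 and 6340.3, MT-CO3 from 5429.5 and 5607 to 3077 and 2938 and MT-CYB from 3384 and 3159.7 to 1748 and 1624 CPM. These encode subunits of complexes III and IV. Complex I was split, with MT-ND4 (5880.2 and 5401 to 3985 and 3960.2 CPM) and MT-ND5 (2684 and 3243 to 1497 and 1627 CPM) lower and MT-ND1 (2796 and 2651 to 3116 and 3475 CPM) higher. MT-ND2 had 4428 and 4449 against 4865 and 5275 CPM and did not pass without 75 µg/ml replicate 2 (adjusted p = 0.1). The share of a mitochondrial ribosomal RNA in a library depends on how RNA was selected, which no source used here states.

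FTL and FTH1, the light and heavy chains of the iron store ferritin, went from 2136 and 1995 to 3594 and 3491 CPM and from 351 and 304 to 906 and 872 CPM, and FTH1 shares 62.4% of its exonic length with other genes. NAMPT, the rate-limiting enzyme of NAD salvage, went from 578 and 629.8 to 1177 and 1232 CPM. LAMB3, a laminin chain of the basement membrane, went from 843 and 809 to 1358 and 1307 CPM. Against these, ACTB, the beta-actin gene often used as a reference, fell from 4945 and 4859 to 3033 and 2957 CPM (log2 fold change -0.71, adjusted p = 5.5e-10). EEF1A1, a translation elongation factor gene, had 13357 and 13294 against 12283 and 11842 CPM, and that call was lost under total counts (log2 fold change -0.02, adjusted p = 0.745) and without 75 µg/ml replicate 2 (-0.12, adjusted p = 0.0729).

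Gene families outside the pathways of the title were read from 42 lists, which had 1788 tested genes of 2129 symbols and of which 40 are described, and the median given for a list is that of the log2 fold changes of its tested members. Across all tested genes 19.2% rose and 19.4% fell, and a list near these shares shows nothing particular. Since abundant genes fell more often, the share of a list's members in the highest quintile of level is given for the lists where it is highest. It was also above the 20% of all tested genes in others. Among these were histone acetylation genes (43.2%), endosomal sorting and RAB genes (43.1%), ETS, RUNX, CEBP and NFAT factors (38.2%) and polyadenylated histone genes (36.8%). Genes of mRNA decay (35.9%), deubiquitinases (35.4%) and histone methylation genes (32.8%) were too.

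**Figure D4:**
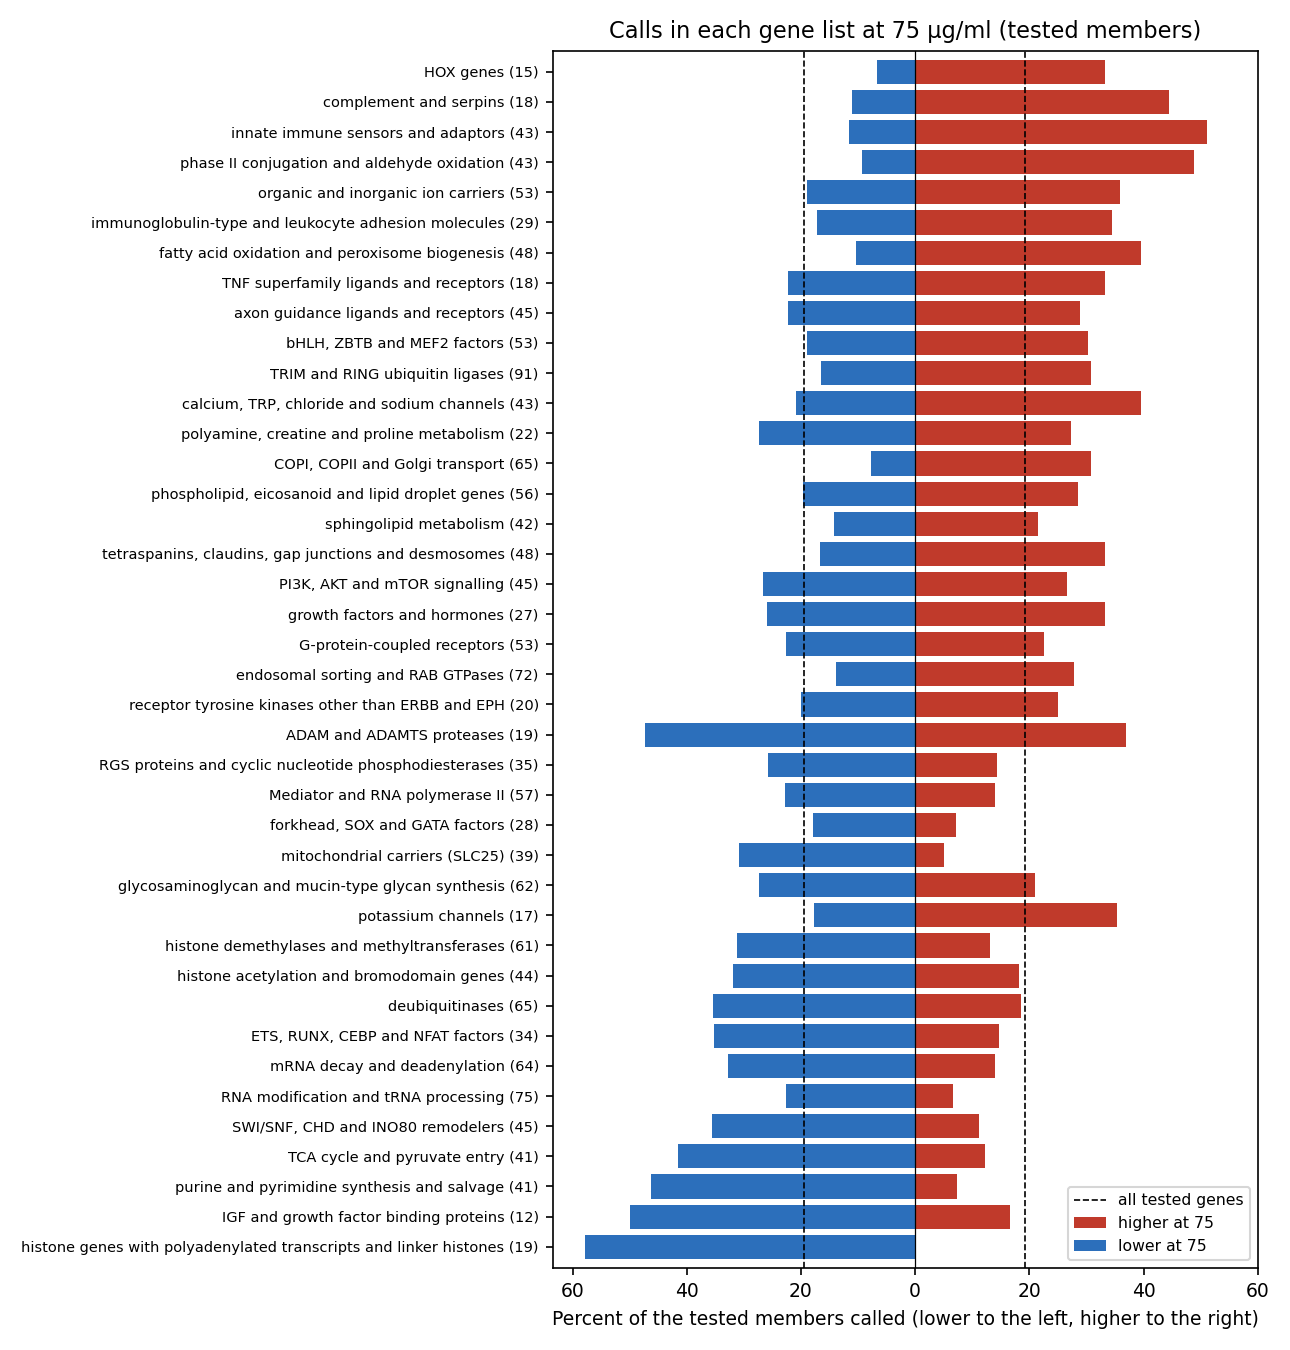
Percent of the tested members of each of 40 gene lists that rose (red, to the right) or fell (blue, to the left) at 75 µg/ml, ordered by the list's median log2 fold change, with the number tested in brackets and dashed lines at the shares over all tested genes (19.2% and 19.4%). Innate immune sensors and phase II enzymes have the longest red bars, and polyadenylated histone genes the longest blue one.

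Among secreted growth factors and hormones 9 rose and 7 fell of 27 tested (median 0.04), and 10 and 6 under total counts (median 0.17). EREG, a ligand of the EGF receptor, rose from 14.3 and 16.5 to 63.8 and 64.9 CPM, and STC1, the stanniocalcin gene, from 66.6 and 90.6 to 239.7 and 253 CPM. BDNF, a neurotrophin, fell from 18.3 and 18.6 to 6.60 and 7.69 CPM, ADM, the vasodilator adrenomedullin, from 97 and 84.2 to 40.4 and 44.4 CPM, and PDGFC, a ligand of PDGF receptors, from 91.7 and 99.6 to 48.2 and 49.7 CPM. Ligands thus moved in both directions. ADAM proteases shed proteins from the cell surface, and the ADAMTS proteases are secreted into the matrix: of both kinds 7 rose and 9 fell of 19 tested (median -0.01), and 7 and 7 under total counts (median 0.11). ADAM8 rose from 109 and 142 to 269 and 282 CPM and ADAM17, the sheddase of TNF, from 73.1 and 77 to 112 and 113 CPM, while ADAM9 fell from 397 and 409.7 to 279 and 267 CPM and ADAMTS12 from 77 and 79.5 to 42.5 and 48.3 CPM. Only 3 of the 19 tested proteases did not pass.

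Genes of the IGF system and of growth factor binding proteins leaned downward only under TMM. There 2 rose and 6 fell of 12 tested (median -0.30), against 3 and 4 under total counts (median -0.17). The rise of IGFBP6 was 0.38 on the log2 scale, and 0.30 without DMSO replicate 1 or 75 µg/ml replicate 2. Of these members 33.3% lay in the highest quintile of level. IGFBP3, which binds and carries IGF, fell from 91.8 and 87.1 to 48.8 and 47.6 CPM, and the RNA-binding protein gene IGF2BP2 from 289.6 and 292 to 192 and 201 CPM. IGF2BP3, its paralog, rose from 30.4 and 36.3 to 47.6 and 46.9 CPM. Among complement genes and serpins 8 rose and 2 fell of 18 tested (median 0.37), and 11 and 0 under total counts (median 0.50). C3, the central complement component, rose from 281 and 316 to 392 and 412 CPM and SERPINE2, an inhibitor of thrombin, from 26.3 and 26.9 to 42.8 and 44.4 CPM. The 2 complement genes that fell, CD59 and CD46, are membrane inhibitors of complement, with changes of -0.24 and -0.15, and neither passed under total counts. Only 1 fell with a filter of 5 CPM, or without DMSO replicate 2, 75 µg/ml replicate 1 or 75 µg/ml replicate 2.

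Guidance cues of axons, which also steer tumour cells, were divided: 13 rose and 10 fell of 45 tested (median 0.13), and 19 and 8 under total counts (median 0.26). SEMA3C fell from 131 and 129.9 to 68.5 and 66.9 CPM, the plexin PLXNB2 from 452 and 431 to 267 and 263 CPM and the ephrin receptor EPHA2 from 392 and 368 to 292 and 287 CPM. SEMA4B rose from 85.2 and 95.7 to 144 and 143 CPM and ROBO3, a receptor of the Slit system, from 35.4 and 37.4 to 51.8 and 62.8 CPM. Of receptor tyrosine kinases outside the ERBB and EPH families 5 rose and 4 fell of 20 tested (median -0.01), and 5 and 3 under total counts (median 0.12). AXL, abundant in this line, fell from 1301 and 1118 to 733 and 735 CPM and ROR1, a Wnt5a receptor, from 27.4 and 24.7 to 8.98 and 9.49 CPM, while PTK7, a pseudokinase, rose from 131 and 134 to 173 and 173 CPM.

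Receptors coupled to G proteins were split evenly: 12 rose and 12 fell of 53 tested (median 0.03), and 15 and 10 under total counts (median 0.16). Without DMSO replicate 1 only 7 rose. ADGRG1, an adhesion receptor, rose from 129.8 and 126 to 207 and 205 CPM. GPRC5A fell from 285 and 290.3 to 103 and 108 CPM and the Wnt receptor FZD2 from 96.2 and 86.1 to 59.7 and 53.7 CPM. Downstream of them, of RGS proteins, cyclases and phosphodiesterases 5 rose and 9 fell of 35 tested (median -0.03), and 9 and 6 under total counts (median 0.10). PDE2A rose from 23 and 25.5 to 40.5 and 43.6 CPM, and ADCY9, an adenylyl cyclase, fell from 44.8 and 43.1 to 31.4 and 30.6 CPM.

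Junction and adhesion genes leaned upward. Among tetraspanins, claudins, connexins and desmosomal genes 16 rose and 8 fell of 48 tested (median 0.06), and 20 and 6 under total counts (median 0.18). The tight junction genes CLDN1 and CLDN4 rose from 18.8 and 17.6 to 33.6 and 32.4 CPM and from 113 and 114 to 157 and 153 CPM, and the plakophilins PKP2 and PKP4 fell from 48.9 and 42.9 to 24.4 and 24.3 CPM and from 166 and 164 to 92.5 and 96 CPM. Of immunoglobulin-type adhesion molecules 10 rose and 5 fell of 29 tested (median 0.21), and 12 and 4 under total counts (median 0.33), and 3 fell without DMSO replicate 1 or without 75 µg/ml replicate 2. ICAM1, which leukocytes bind, went from 44.7 and 46 to 99.2 and 94.1 CPM, with 23.6% of its exonic length shared with other genes. ALCAM went the other way, from 652 and 655 to 303 and 302 CPM.

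Innate immune sensors and their adaptors held the largest share of rises among the lists: 22 rose and 5 fell of 43 tested (median 0.33), and 27 and 3 under total counts (median 0.46). The 5 that fell became 3 without DMSO replicate 1 or without 75 µg/ml replicate 1. IRAK2, a kinase of interleukin 1 and Toll-like receptor signalling, rose from 31.1 and 30.2 to 76.2 and 70.1 CPM, CASP4, the caspase that senses bacterial lipopolysaccharide in the cytosol, from 53 and 54.5 to 86.2 and 88.7 CPM and TLR6 from 21.2 and 22.8 to 38.4 and 45.2 CPM. IRAK1, which acts in the same pathway as IRAK2, fell from 324 and 287 to 221 and 221 CPM and the TNF receptor adaptor TRAF2 from 74.6 and 70.5 to 44.1 and 50.3 CPM. Of TNF family ligands and receptors 6 rose and 4 fell of 18 tested (median 0.14), and 8 and 2 under total counts (median 0.27), and 2 fell without DMSO replicate 1, 75 µg/ml replicate 1 or 75 µg/ml replicate 2. TNFRSF1B, the second TNF receptor, rose from 16.2 and 15.4 to 27.6 and 25.2 CPM and TNFRSF10B, a death receptor of TRAIL, from 269 and 289 to 350.3 and 349 CPM, and TNFRSF10D, a decoy receptor of the same ligand, fell from 102 and 108 to 68.9 and 75.3 CPM.

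In PI3K, AKT and mTOR signalling 12 rose and 12 fell of 45 tested (median 0.05), and 20 and 8 under total counts (median 0.17), and DESeq2 found 7 higher. SESN2 and DDIT4, inhibitors of mTORC1 that stress induces, rose from 15.8 and 15.4 to 47.4 and 47.3 CPM and from 90.6 and 121 to 262 and 219 CPM, and DDIT4 shares 41.2% of its exonic length with other genes. IRS1, which links the insulin and IGF receptors to PI3K, fell from 119.6 and 128 to 67.9 and 71.1 CPM, as did the phosphatase genes INPP4B (93.4 and 91.5 to 59 and 54 CPM) and PHLPP2 (79.8 and 81.8 to 54.1 and 52.3 CPM).

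Among calcium, TRP, chloride and sodium channels 17 rose and 9 fell of 43 tested (median 0.08), and 21 and 5 under total counts (median 0.20). DESeq2 found 11 higher, and 5 fell without 75 µg/ml replicate 2. TRPM4 rose from 11.2 and 14.9 to 26.6 and 26.2 CPM and the ATP-gated channel P2RX4 from 14 and 17.4 to 27.6 and 27 CPM. Of potassium channels 6 rose and 3 fell of 17 tested (median -0.08), and 6 and 2 under total counts (median 0.05). KCNAB2, a channel subunit, rose from 33.9 and 36 to 72.1 and 77 CPM and KCNQ5 fell from 35.6 and 29.5 to 17.3 and 17.1 CPM. Of carriers of organic and inorganic ions 19 rose and 10 fell of 53 tested (median 0.21), and 24 and 8 under total counts (median 0.34). SLC22A4, a carrier of ergothioneine, rose from 9.83 and 10.4 to 26.5 and 27.9 CPM, SLC37A2, a sugar phosphate carrier, from 10.0 and 13.6 to 43.1 and 36.6 CPM and SLC6A6, the taurine transporter, from 307 and 324 to 458 and 461 CPM. SLC12A4, a potassium chloride cotransporter, fell from 147 and 149.8 to 104 and 108 CPM.

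Enzymes that conjugate or oxidise foreign compounds leaned upward. Of phase II and aldehyde-oxidising enzymes 21 rose and 4 fell of 43 tested (median 0.28), and 26 and 2 under total counts (median 0.41). This list holds CYP1A1 and CYP1B1, and ALDH3B1, an aldehyde dehydrogenase, rose from 19.9 and 24.2 to 46 and 46.4 CPM. Those that fell included ALDH18A1, which makes proline (135 and 135 to 96.9 and 89.9 CPM) and the mitochondrial ALDH1B1 (51.1 and 47.2 to 36.4 and 31.1 CPM). Of fatty acid oxidation and peroxisome genes 19 rose and 5 fell of 48 tested (median 0.19), and 27 and 1 under total counts (median 0.32). That rise was less firm: DESeq2 found 9 higher, and 11 and 12 rose without 75 µg/ml replicate 1 and replicate 2. The 5 that fell became 3 without 75 µg/ml replicate 1 or DMSO replicate 2, and 1 without 75 µg/ml replicate 2. HSD17B4, a peroxisomal enzyme of beta-oxidation, rose from 83.4 and 89 to 109 and 110.3 CPM and CPT2, which brings fatty acids into the mitochondrial matrix, from 4.92 and 4.71 to 8.80 and 8.71 CPM.

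Genes of nucleotide synthesis leaned downward, and those of the citrate cycle did so under TMM. Of purine and pyrimidine genes 3 rose and 19 fell of 41 tested (median -0.18), and 3 and 14 under total counts (median -0.06). CTPS1, which makes CTP, fell from 120.3 and 110.3 to 63.2 and 64.2 CPM, PAICS, an enzyme of purine synthesis, from 453 and 453 to 308 and 311 CPM and PRPS2, which makes the activated ribose, from 73.7 and 73.1 to 41.9 and 37.2 CPM. The 3 that rose act in breakdown or salvage: AMPD3, an AMP deaminase (17.2 and 17.1 to 68.6 and 73.5 CPM), UPP1, a uridine phosphorylase (85.7 and 78.3 to 173 and 179 CPM) and TK2, the mitochondrial thymidine kinase (12.4 and 14.3 to 20.2 and 18.4 CPM). Of citrate cycle and pyruvate entry genes 5 rose and 17 fell of 41 tested (median -0.12), and 10 and 13 under total counts (median 0.00), and DESeq2 found 3 higher. GOT2, an aspartate transaminase gene, and FH, the fumarase gene, fell by 0.50 and 0.51 on the log2 scale. IDH1, the cytosolic isocitrate dehydrogenase that makes NADPH, rose from 80.7 and 97.6 to 149.9 and 139 CPM and the alanine transaminase gene GPT2 from 62 and 61.3 to 112 and 109 CPM. Of these tested members 51.2% lay in the highest quintile of level, against 29.3% of the purine and pyrimidine genes.

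Of mitochondrial carriers 2 rose and 12 fell of 39 tested (median -0.07), and 9 and 6 under total counts (median 0.05). Without DMSO replicate 1 only 6 fell, and with a filter of 5 CPM 4 rose. UCP2, an uncoupling protein gene, fell from 96.3 and 90.9 to 47.7 and 54.8 CPM and SLC25A37, which imports iron, rose from 247 and 259 to 383 and 383 CPM. Of polyamine, creatine and proline genes 6 rose and 6 fell of 22 tested (median 0.08), and 9 and 4 under total counts (median 0.21), with 3 higher by DESeq2 or without 75 µg/ml replicate 1. Among those with the smallest p, SMS and AMD1, of polyamine synthesis, fell from 350.3 and 346 to 199.7 and 204 CPM and from 178 and 176 to 129.6 and 123 CPM, and SAT1 and SMOX, of polyamine breakdown, rose from 25.1 and 27.2 to 46 and 48.8 CPM and from 18.3 and 14.5 to 35.5 and 36 CPM.

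Among phospholipid, eicosanoid and lipid droplet genes 16 rose and 11 fell of 56 tested (median 0.07), and 23 and 8 under total counts (median 0.20). G0S2, an inhibitor of the triglyceride lipase ATGL, rose from 119 and 119.9 to 365 and 373 CPM, and ABHD5, the coactivator of that lipase, fell from 95.5 and 83.1 to 48 and 53.1 CPM. PTGR1, which inactivates prostaglandins and leukotrienes, rose from 53.2 and 49.2 to 91.5 and 87.3 CPM, and PTDSS1, a phosphatidylserine synthase, fell from 208 and 192 to 113 and 112 CPM. Of sphingolipid genes 9 rose and 6 fell of 42 tested (median 0.07), and 18 and 6 under total counts (median 0.19). The lysosomal hydrolases SMPD1, GLA and ASAH1 rose from 58.6 and 54.6 to 99.7 and 94.8, from 46.3 and 49.8 to 85.8 and 83.3 and from 72.4 and 78 to 110.3 and 115 CPM, while UGCG and SGMS1, which make glucosylceramide and sphingomyelin, fell from 121 and 138 to 87.3 and 90.8 and from 64.4 and 64.6 to 47.1 and 47.3 CPM. Of genes of glycosaminoglycan and mucin-type glycan synthesis 13 rose and 17 fell of 62 tested (median -0.08), and 23 and 11 under total counts (median 0.05). EXT1, a heparan sulphate polymerase, fell from 378 and 379.8 to 233 and 228 CPM and CSGALNACT2, an enzyme of chondroitin sulphate synthesis, rose from 90.5 and 92.7 to 133 and 142 CPM.

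Transcription factor families showed few common directions. Of ETS, RUNX, CEBP and NFAT genes 5 rose and 12 fell of 34 tested (median -0.11), and 10 and 8 under total counts (median 0.01). CEBPB, a factor of acute-phase and stress responses, rose from 49.4 and 42.6 to 125 and 132 CPM, and ETS1 and NFATC2 fell from 729.8 and 739 to 405 and 424 CPM and from 88.5 and 79.3 to 42.9 and 45.9 CPM. Of bHLH, ZBTB and MEF2 factors 16 rose and 10 fell of 53 tested (median 0.12), and 23 and 2 under total counts (median 0.25). DESeq2 found 6 higher, 7 rose without DMSO replicate 1 and 10 without 75 µg/ml replicate 1, and 5 and 4 fell without DMSO replicate 1 and without 75 µg/ml replicate 2. BHLHE40, a repressor tied to the clock and to hypoxia, rose from 49.9 and 59.4 to 103 and 104 CPM and TFAP4 fell from 24.3 and 18.7 to 12 and 11.9 CPM. Of forkhead, SOX and GATA factors 2 rose and 5 fell of 28 tested (median -0.07), and 7 and 3 under total counts (median 0.06). Only 1 rose by DESeq2 or without DMSO replicate 1 or 75 µg/ml replicate 2, and without the last 3 fell. SOX9 fell from 146 and 143 to 80.3 and 70.0 CPM and FOXO4 rose from 4.03 and 3.93 to 8.74 and 7.69 CPM. Of HOX genes and their partners 5 rose and 1 fell of 15 tested (median 0.42), and 5 and 1 under total counts (median 0.54), at a median level of 1.57 CPM. Their count of rises was 2 by DESeq2 or with a filter of 5 CPM, 3 without 75 µg/ml replicate 1 and 1 without DMSO replicate 2 or 75 µg/ml replicate 2, and with DESeq2 size factors 2 fell. PBX3 fell from 29.1 and 31.4 to 17.5 and 19 CPM.

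In each chromatin list more genes fell than rose under TMM. Only the polyadenylated histone genes kept a clear excess of falls under total counts. Among histone genes with polyadenylated messages and linker histones 0 rose and 11 fell of 19 tested (median -0.37), and 1 and 7 under total counts (median -0.25). H2AX, a variant histone that marks DNA breaks when phosphorylated, fell from 382 and 332 to 245 and 237 CPM. Of SWI/SNF, CHD and INO80 remodelers 5 rose and 16 fell of 45 tested (median -0.12), and 9 and 10 under total counts (median 0.01), and 3 rose without DMSO replicate 1 or 75 µg/ml replicate 2. HELLS, a remodeler needed for DNA methylation, fell from 138 and 132 to 74.4 and 74.5 CPM. Of histone demethylases and methyltransferases 8 rose and 19 fell of 61 tested (median -0.08), and 19 and 10 under total counts (median 0.05), with 5 higher without DMSO replicate 1. Of the demethylases, KDM7A rose from 16 and 17.2 to 34.5 and 32.6 CPM, KDM5B from 53 and 57.9 to 80.1 and 87.2 CPM and KDM6B from 27.9 and 26 to 42.2 and 41.4 CPM. Methyltransferases NSD2 and PRMT1 fell from 803 and 811 to 566 and 577 CPM and from 295 and 281 to 211 and 218 CPM. Of histone acetylation and bromodomain genes 8 rose and 14 fell of 44 tested (median -0.08), and 12 and 6 under total counts (median 0.04). The rises numbered 5 by DESeq2 or without DMSO replicate 2 and 4 without 75 µg/ml replicate 2. HDAC5 rose from 20.3 and 26.1 to 40.2 and 42.5 CPM and HDAC2 fell from 200.3 and 193 to 146 and 145 CPM. In the remodeler list 55.6% of tested members lay in the highest quintile of level, where 48.6% of all tested genes fell. Whether chromatin genes fell more often than other genes of their level was not tested.

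In the making and processing of RNA, of Mediator and RNA polymerase II genes 8 rose and 13 fell of 57 tested (median -0.04), and 20 and 4 under total counts (median 0.08). Without DMSO replicate 1, 75 µg/ml replicate 1 and 75 µg/ml replicate 2 the rises numbered 4, 5 and 3, and without the last 8 fell. SUPT16H, a subunit of the histone chaperone FACT, fell from 411 and 431 to 302 and 302 CPM. Of genes of mRNA decay 9 rose and 21 fell of 64 tested (median -0.11), and 16 and 13 under total counts (median 0.01), with 5 higher by DESeq2 or without 75 µg/ml replicate 1. ZC3H12A, a nuclease that degrades cytokine messages, rose from 32.6 and 28.9 to 67 and 70.0 CPM and the exosome nuclease DIS3L fell from 58.1 and 64.6 to 29.6 and 31.9 CPM. Of genes of RNA modification and tRNA processing 5 rose and 17 fell of 75 tested (median -0.12), and 13 and 11 under total counts (median 0.00). The 5 rises became 3 by DESeq2, without the filter or without either DMSO library, and 2 without 75 µg/ml replicate 1. NSUN2, a cytosine methyltransferase of tRNA, fell from 241 and 231 to 167 and 165 CPM and the pseudouridine synthase PUS7 from 46.5 and 41 to 26.5 and 26.6 CPM.

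Genes of protein turnover moved in both directions, and the scaling set the balance among deubiquitinases. Of TRIM and RING ubiquitin ligases 28 rose and 15 fell of 91 tested (median 0.10), and 43 and 9 under total counts (median 0.23). TRIM16L rose from 27.8 and 29.2 to 90.0 and 84.5 CPM and its paralog TRIM16, 28.7% of whose exonic length overlaps other genes, from 18.3 and 16.5 to 33.8 and 36.1 CPM. RNF145 fell from 108 and 119.9 to 71.8 and 71.3 CPM. Of deubiquitinases 12 rose and 23 fell of 65 tested (median -0.09), and 17 and 9 under total counts (median 0.03). USP1, which acts in DNA repair, fell from 264 and 260.1 to 188 and 197 CPM and USP20 rose from 26.7 and 26.9 to 43.9 and 44 CPM.

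Of COPI, COPII and Golgi genes 20 rose and 5 fell of 65 tested (median 0.07), and 35 and 2 under total counts (median 0.19), although 67.7% of the tested members lay in the highest quintile of level. DESeq2 found 13 higher. The 5 that fell became 8 without DMSO replicate 1 and 3 without each of the other DMSO and 75 µg/ml libraries. SEC24D, a cargo adaptor of COPII coats, rose from 76.5 and 85.8 to 116 and 114 CPM, the Golgi matrix gene GOLGA5 from 44.1 and 47.9 to 66.8 and 70.0 CPM and the COPI subunit gene COPG1 from 175 and 192 to 246 and 242 CPM. ARF1, the GTPase that recruits COPI, fell from 640.1 and 616 to 545 and 514 CPM. Among endosomal sorting genes and RAB GTPases 20 rose and 10 fell of 72 tested (median 0.01), and 30 and 5 under total counts (median 0.14), and 13 rose without 75 µg/ml replicate 1. RAB31 rose from 52.3 and 57.2 to 84.6 and 89.2 CPM and RAB27B, of exosome and granule release, from 4.41 and 4.45 to 9.78 and 10.8 CPM. RAB30 fell from 21.2 and 22.2 to 10.3 and 11.8 CPM.

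Of 12390 protein-coding genes 21.6% rose and 22.9% fell, and their median absolute change was 0.25 on the log2 scale. Of 691 lincRNA rows 12.6% rose and 5.64% fell, of 928 antisense rows 9.7% and 4.53%, and of 880 pseudogene rows 7.05% and 8.07%. Rises of 1 or more on the log2 scale numbered 544 among the protein-coding genes, 64 among lincRNA rows and 59 among antisense rows, whose median absolute changes were 0.44 and 0.43. The classes differ in level, and no difference between them was tested. ZMIZ1-AS1 had 0.693 and 1.11 CPM in DMSO and 14.1 and 13.3 at 75 µg/ml. LUCAT1, a stress-induced long noncoding RNA, rose from 51.9 and 65.9 to 183 and 189 CPM, LINC00963 from 5.11 and 7.07 to 18.1 and 18.8 CPM and TM4SF19-AS1, which overlaps other genes over 25.2% of its exons, from 3.47 and 3.21 to 13.6 and 11.5 CPM. HIF1A-AS3, a row antisense to the hypoxia factor gene, fell from 28.6 and 26.4 to 12.2 and 8.23 CPM. The pseudogene RPL13AP20 fell from 9.08 and 9.62 to 1.96 and 2.52 CPM, and reads of its parent gene could be placed on it.

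Among genes that rose, 5 with a symbol had 0 counts in both DMSO libraries, and 3 counts in a DMSO library correspond to 0.193 CPM on this scale. Against that floor per library, PIERCE2, a gene of ciliary microtubules, was at least 3.46-fold higher, with 11 and 11 counts at 75 µg/ml. RDH12, a retinol dehydrogenase gene, had 7 and 12 counts (at least 2.98-fold), and BCL2A1, an NF-kB target that blocks apoptosis, had 6 and 11 (at least 2.67-fold). AKR1C4, an aldo-keto reductase with near-identical paralogs, had 5 and 8 counts (at least 2.04-fold) and did not pass without DMSO replicate 1 (adjusted p = 0.0523). IL36B, a cytokine of the interleukin 1 family, had 7 and 5 counts (at least 1.89-fold). All 5 are near the limit of detection at this depth.

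The last question is where the lower dose stood apart from the higher one. Between 75 and 150 µg/ml, 22.0% of tested genes changed by the same edgeR test, 9.51% higher and 12.5% lower at 150 µg/ml. The test of that step shares the 75 µg/ml libraries with the comparison above, so a library that strays at 75 µg/ml moves both steps in opposite directions. The counts of this step also hung on single libraries: 1482 genes were higher, but 807 without 75 µg/ml replicate 1, 968 without 75 µg/ml replicate 2 and 592 without 150 µg/ml replicate 1. The 1951 that were lower became 1183, 1396 and 915. DESeq2 found 980 higher.

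Some genes passed at both steps in opposite directions. With a symbol and a mean of 10 CPM or more, 181 were higher and then lower, and 132 lower and then higher, of 15589 genes tested. Those with the largest changes are given here with all 6 libraries. CXXC5, a zinc finger gene, had 29.3 and 37.8 CPM in DMSO, 60.8 and 58.1 at the lower dose and 32.1 and 41.9 at 150 µg/ml. FCGRT, the neonatal Fc receptor gene, had 12.2 and 11.9, 18.9 and 20.8 and 12.9 and 12.9 CPM, and MYH15, a myosin heavy chain gene, 23.3 and 29.5, 43.6 and 47.5 and 25.1 and 33.3 CPM. In these 3 genes both libraries at 75 µg/ml lay above all 4 others, a position that the rule which picked them makes likely. The same held for RIPOR3, with 65.9 and 90.8, 111 and 124 and 48 and 69.1 CPM, but its rise at 75 µg/ml did not pass with DESeq2 (adjusted p = 0.116). MIR3142HG, the host of a microRNA, had 41.5 and 29.5, 98.8 and 54.9 and 35.4 and 56.7 CPM, with libraries of a group far apart. Its step from 75 to 150 µg/ml did not pass without 75 µg/ml replicate 1 (adjusted p = 0.414), without 150 µg/ml replicate 1 (adjusted p = 0.319) or with DESeq2 (adjusted p = 0.277), and its rise at 75 µg/ml did not with DESeq2 (adjusted p = 0.0579).

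In the other direction, ABL2, a tyrosine kinase that shapes the actin cytoskeleton, had 386 and 374 CPM in DMSO, 229 and 255 at the lower dose and 360.1 and 319 at 150 µg/ml. SOWAHC, an ankyrin repeat gene, had 37.7 and 37.1, 26.2 and 27.3 and 42.2 and 36.2 CPM. IGFBP3, the carrier of IGF, had 67 and 69.1 CPM at 150 µg/ml after 48.8 and 47.6 at 75 µg/ml, and lay between the DMSO and 75 µg/ml levels. For these 3 the libraries at 75 µg/ml lay below all others, which the same rule makes likely. Also lowest in both libraries at 75 µg/ml were PUF60, a splicing factor gene, and ADAMTS6. PUF60 had 45.2 and 52.1, 29 and 30.9 and 36.5 and 48.1 CPM, and ADAMTS6 had 61.1 and 54.1, 19.9 and 17.4 and 30.9 and 22.3 CPM. Their second step did not pass without 150 µg/ml replicate 2 for PUF60 (adjusted p = 0.106), nor without 75 µg/ml replicate 2 (adjusted p = 0.0702) or 150 µg/ml replicate 1 (adjusted p = 0.24) for ADAMTS6.

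**Figure D5:**
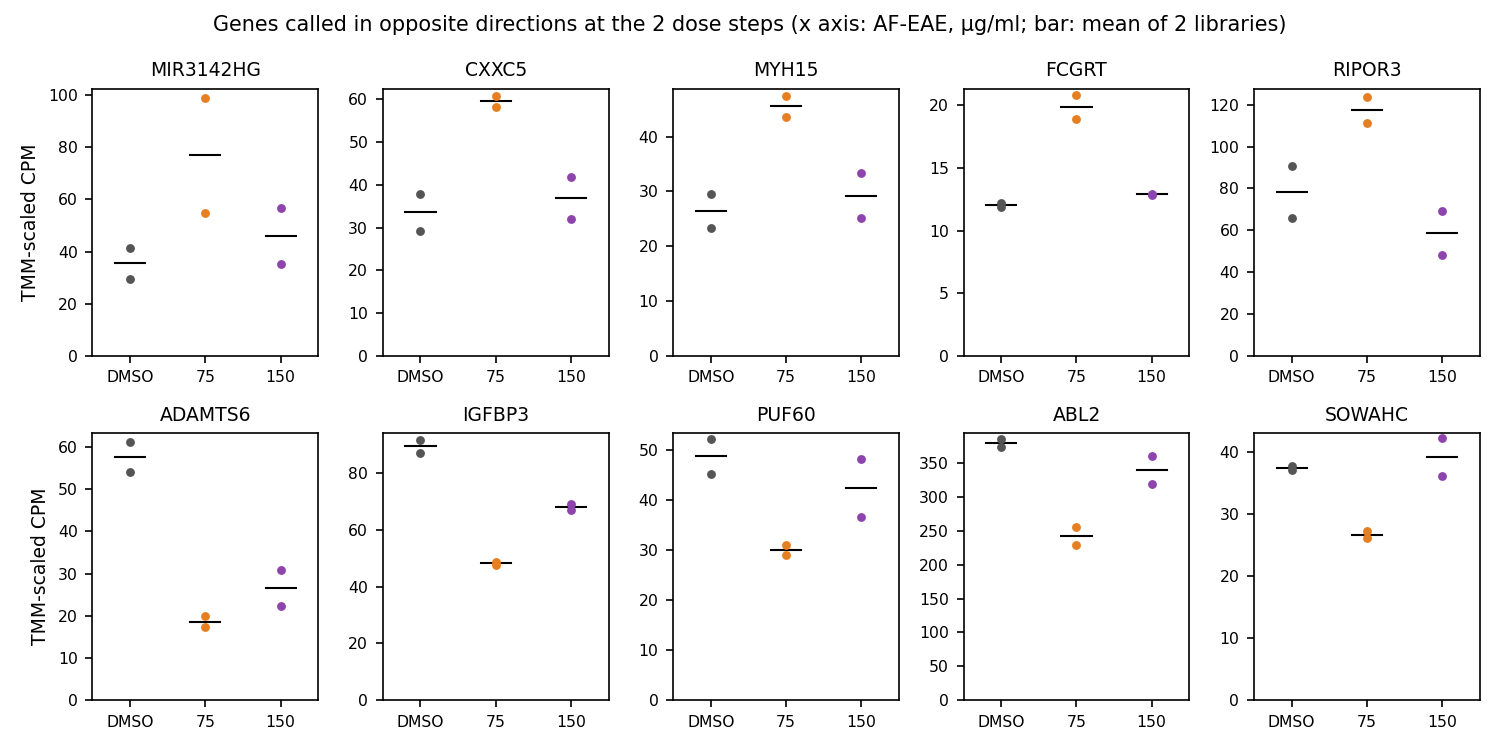
TMM-scaled CPM in each library (points, with a bar at the mean of 2) for 10 genes that changed in opposite directions from DMSO to 75 µg/ml and from 75 to 150 µg/ml; each panel's vertical axis starts at 0. In CXXC5, MYH15, FCGRT and RIPOR3 the 75 µg/ml points lie above the rest. In ABL2, IGFBP3, SOWAHC, PUF60 and ADAMTS6 they lie below it, while MIR3142HG is spread widely.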

How the data were processed

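RNA-seq was made from 6 libraries of MDA-MB-231 cells, 2 for each of 3 groups (DMSO, 75 and 150 µg/ml AF-EAE, 24 h), grouped by their treatment labels. The deposited counts are whole reads per gene, unnormalized, in 1 table per library with 60651 gene rows, made by the authors with HISAT2 2.2.1 and HTSeq 2.0.2 on hg38, per the submitters' processing notes. The sources used here do not give the annotation release, strand setting or RNA selection. HTSeq's 5 summary rows were left out: reads in no feature (6.32% to 7.98%) and in more than 1 gene (10.95% to 11.48%), so overlapping genes are undercounted. Gene IDs were matched to GENCODE 29 (58405 rows), for coordinates and gene types.

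Counts were scaled with TMM and tested with edgeR 4.0.16 (quasi-likelihood, R 4.3.3) in 1 fit of all 6 libraries after filterByExpr, which kept 15589 genes and removed 45062. P-values were adjusted by Benjamini-Hochberg over all tested genes, with 0.05 as threshold, on 3 residual and 13.8 prior degrees of freedom (biological coefficient of variation 5.08%). The code was tested on simulated data. A count of 3 corresponds to 0.175 to 0.192 CPM before TMM scaling, which limits low genes, and covers counting error only. Alternatives were library totals, DESeq2 size factors, other filters, DESeq2 1.42.0, limma-voom 3.58.1, other thresholds, the 4 libraries alone, the replicate number as a term and leaving out each library.

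The genes named are the 12 largest changes each way (10 CPM or more), up to 3 of each list's members per direction with the smallest p (5 CPM or more), 8 gains and 8 losses in CPM, 5 noncoding rows each way, genes at 0 in DMSO and 6 each way that changed oppositely between doses. ESR1 was added after its values were seen. The comparison and the lists were chosen with earlier results of these data known. The motifs were searched in the 250 bases before RefSeq starts (GRCh38.p14). Some genes and 2 lists that these rules name are not reported here.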

Additional observations from a re-analysis of the deposited data

How the results depend on the processing

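For 75 µg/ml against DMSO, library totals in place of TMM gave 4501 genes higher and 1816 lower, and a log2 fold change of 1 or more left 740 and 196. All other settings, among them DESeq2 size factors, DESeq2, limma-voom, both filters and the 4 libraries alone, stayed within 1.5 times of 2989 and 3026. Leaving out each library in turn gave 2262 to 2794 higher and 2392 to 3079 lower. For 150 against 75 µg/ml DESeq2 found 980 higher in place of 1482, and leaving out a library gave 592 to 1612 higher and 915 to 2105 lower. Without 75 µg/ml replicate 1, 807 were higher and 1183 lower, without 75 µg/ml replicate 2, 968 were higher, and without 150 µg/ml replicate 1, 592 and 915, and the cause was not tested. A fit with 1 library in a group assumes that it varies like the others. With the replicate number as a block, 3125 and 3167 genes passed for 75 µg/ml against DMSO and 1657 and 2119 for 150 against 75 µg/ml. Deviations of same-numbered libraries correlated at 0.059, 0.0412 and 0.00373 between groups, so little was shared by number. Matched sets with little in common would look the same, and whether the numbers pair the samples is not known. Of 305 named genes refitted, 272 kept direction and call in every setting that gave a result for them, and none reversed. The filter of 5 CPM, DESeq2 and the 4 libraries alone gave no result for some named genes. The depth limits genes of few counts.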

Other observations

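Of 9451 genes with a mean of 10 CPM or more, 10 had libraries of 1 group that differed by more than 2-fold with 0.1 CPM added, and 4 of them, chosen after their values were seen, are given here. DHFRP1, a pseudogene, had 4.52 and 19.9 CPM in the libraries at 75 µg/ml and was lower there by edgeR's test. SCRIB, a cell polarity gene, had 32.1 and 14.3 CPM in DMSO. CEP170, a centrosome gene, had 5.38 and 15.6 CPM at 75 µg/ml and SBNO2 had 36.9 and 77.2 CPM. Neither SCRIB, CEP170 nor SBNO2 passed the test between the groups.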
